A study of Drosophila melanogaster with 5 samples.

Results

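In female Drosophila melanogaster embryos, 343 autosomal regions carried a called peak for the RNA helicase MLE (Maleless) in the library of 2-4 h control replicate 2 and in no other library. They were broad stretches of low signal, with a median width of 3316 bp and a median maximum signal of 18. They were 343 of 2263 merged regions in all. They lay on 2L below 20.5 Mb, on 2R or 3R from 3 Mb, or on 3L below 25.1 Mb of the dm6 assembly. These limits leave out the centromere-side ends of the arms. No border of heterochromatin was set here, so pericentromeric sequence can remain inside them. Peaks of all 5 libraries that shared at least 1 bp had been merged, and regions with a peak of any other library were left out. The regions were thus selected on the presence or absence of the authors' peak calls in the 5 lists, and that pattern of calling is a description and not a finding.

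MLE positions had been mapped by CUT&RUN. In this assay a nuclease tethered to an antibody cuts DNA around the bound protein, and the fragments set free are sequenced. Controls were embryos of MTD-GAL4>GFPRNAi mothers, with 2 libraries at 0-2 h, before the maternal-to-zygotic transition, and 2 libraries at 2-4 h, after it. The fifth library came from 0-2 h embryos of mothers in which MTD-GAL4, a driver active in the maternal germ line, expressed UAS-CLAMPRNAi[val22] against CLAMP, a zinc finger factor of GA repeats. All groups shared the meiotic drive background (SD72/CyO and Rsp[s] stocks), which left X-bearing sperm, so the embryos were female, and each library was made from pooled whole embryos of several crosses and egg-layings. Read depth is unknown for all 5 lists. Signal values are the authors' own and were used to describe, rank or filter peaks within each list, on a scale that is not comparable between lists.

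MLE unwinds RNA and loads the roX non-coding RNAs into the dosage compensation complex, which raises transcription of the male X chromosome. Females do not assemble that complex, because Sex-lethal blocks production of its subunit MSL2, yet MLE itself is present in both sexes and is also known for roles in RNA editing and splicing. At the maternal-to-zygotic transition the embryo degrades maternal RNAs and begins broad transcription of its own genome.

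The label of the regions names the 2-4 h stage, but the regions came from 1 of the 2 libraries of that stage. The other 2-4 h control called none of them, so stage and library cannot be told apart, and no test between conditions was possible. Regions of 1 library are not replicates, and all intervals given here cover counting error over regions only. On these arms 898 regions were called in any library, and 38.2% of them were called in 2-4 h control replicate 2 alone. The matching shares were 5.57% (50 regions) for 0-2 h control replicate 1, 18% (162 regions) for 0-2 h control replicate 2, 0.111% (1 region) for 2-4 h control replicate 1 and 0% (0 regions) for clampRNAi. The lists were of unequal length. For 2-4 h control replicate 2 there were 562 regions on these arms, of which 61.0% were alone. The other lists had, in the same order, 298 (16.8% alone), 502 (32.3%), 158 (0.633%) and 211 (0%). The 50 and 162 regions alone in the 0-2 h controls had median widths of 445.5 bp and 89.5 bp. None of the former and 14 of the latter were at least 1000 bp wide.

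Every one of the 343 regions was broad. Each held exactly 1 peak, and widths ran from 1155 bp to 12453 bp, with the middle of the distribution between 2573.5 bp and 4598 bp (quartiles). Widths reached 2 kb in 317 regions and 5 kb in 68. Together they covered 1268 kb, or 1.31% of the 96.96 Mb of these arm spans. They made up 21.6% of the peaks of the list and 29.2% of its covered length, but 1.81% of its summed signal.

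The signal was low and flat along these stretches. Maximum signal ranged from 7 to 130 with quartiles of 14 and 22, and 236 regions (68.8%) did not exceed 20. Mean signal per base had a median of 6.73 and a range of 2.91 to 21.1. The maximum was a median of 2.53 times the mean of its own region (quartiles 2.24 and 2.92), with extremes of 1.60 and 13.3. Wider regions were lower: the 26 regions under 2000 bp had a median maximum of 28, and the 68 regions of 5000 bp or more had 13. Total signal is width times mean signal, so a lowest total in the list ties the measures to each other.

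**Figure D1:**
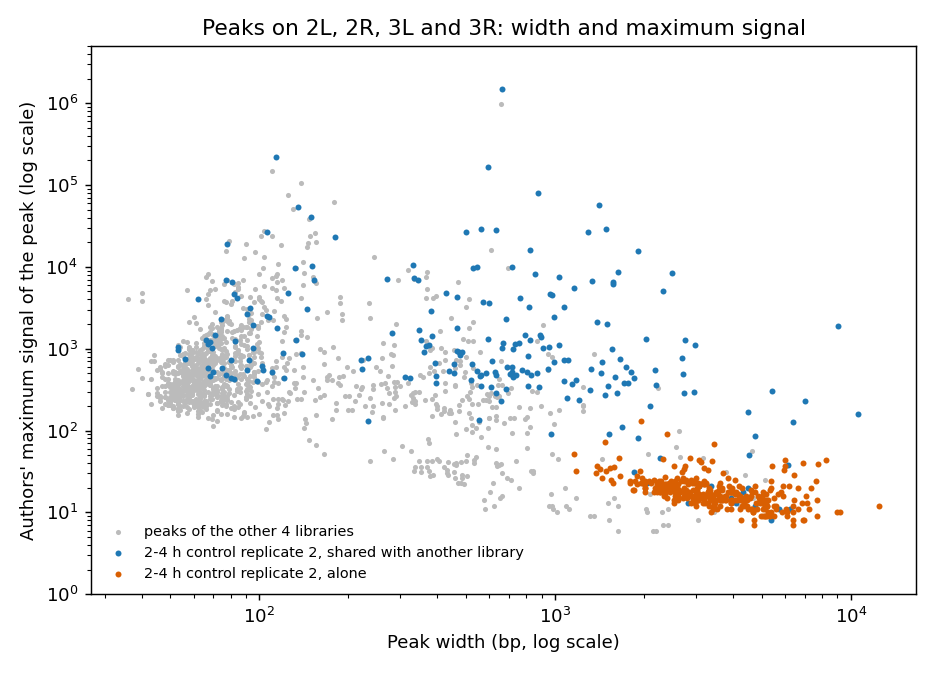
Width in bp (x, log scale) and the authors' maximum signal (y, log scale) of each peak on the 4 arm spans, with grey for the other 4 libraries, blue for peaks of 2-4 h control replicate 2 shared with another library and orange for the 343 regions of that library alone. The orange points lie at 1155 bp or wider and at a maximum of 130 or lower, while the shared peaks had a median maximum of 751, and signal scales are not comparable between libraries.

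Most of the regions stood close to the lowest total signal in the list, which was 18175. Total signal was at most 1.1 times that value in 128 regions and at most 1.5 times in 289 (84.3%). Of the 343 regions, 305 (88.9%) ranked in the lower 50% of the list by total signal, and the highest percentile among them was 89.9. Kept to the upper 50% of each list, 41 regions met the rule, of which 38 were among the 343. Kept to the 370 peaks of highest total signal in each list, 5 regions met it.

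The same library also called 219 regions on these arms that were shared with at least 1 other library, and those differed in shape. Their peaks had a median width of 685 bp, a median maximum of 751 and a median total of 48677, against 3316 bp, 18 and 20803. Of them 63 (28.8%) lay within 1.5 times the lowest total. A maximum of 20 or less was found for 9 (4.11%). Width alone did not separate the classes: 66 shared peaks were at least as wide as the narrowest of the 343, and their median maximum was 359.5 (quartiles 82.25 and 1068). Among shared peaks 21 (9.59%) were both as wide and as low as the 343 regions, and 20 of those 21 were shared with 0-2 h control replicate 2. That library had 28 peaks of this broad and low kind on the arms, 0-2 h control replicate 1 had 3, and 2-4 h control replicate 1 and clampRNAi had 0, each on its own signal scale.

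Regions of the same library alone on the X arm looked alike. There were 133, with a median width of 3668 bp, a median maximum of 19 and a median total of 22867, and 131 of them were at least as wide and at most as high as the 343. Their density was 5.65 per Mb of X (exact Poisson 95% interval 4.73 to 6.70) against 3.54 per Mb of the autosomal spans (3.17 to 3.93). These spans are unlike, since X was counted over its full 23.5 Mb and the autosomal spans stop at their centromere-side limits. Without those limits the autosomal count was 476 in place of 343, so the densities do not compare X with autosomes. The remaining 464 regions called in that library alone lay beyond the arm limits, on chromosome 4 or on other contigs. They were narrower and higher, with medians of 2342 bp and 39. No test was made between these classes, which come from a single library.

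The regions were about as dense on each of the 4 arms and were densest next to the centromere-side limits. Density was 3.37 per Mb on 2L (69 regions), 3.59 on 2R (80), 3.43 on 3L (86) and 3.71 on 3R (108), and each lay inside the Poisson interval of every other arm. Within 3 Mb of the limit there were 71 regions, or 5.92 per Mb (4.62 to 7.46). In the 8 bins from 3 to 27 Mb density ran from 2.75 to 3.71 per Mb, with upper Poisson bounds of 3.86 to 5.42. The last bin, on 3R beyond 27 Mb from the limit, held 9 regions in 2.07 Mb, or 4.34 per Mb (1.98 to 8.24), an interval that includes the density of the first bin. The shared regions were also densest in the bin next to the limit, at 3.67 per Mb (2.66 to 4.92).

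**Figure D2:**
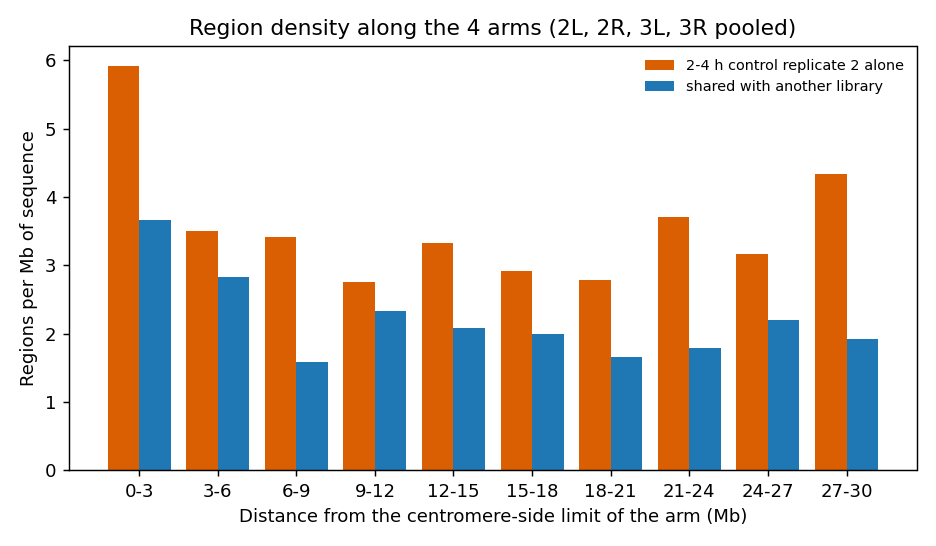
Regions per Mb of sequence (y) by distance from the centromere-side limit of the arm in bins of 3 Mb (x), pooled over 2L, 2R, 3L and 3R, for the 343 regions (orange) and the 219 regions shared with another library (blue). The first bin held 5.92 and 3.67 per Mb, the orange bars from 3 to 27 Mb lay between 2.75 and 3.71, and the last, of 9 regions, stood at 4.34.

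The nearest regions of the same library alone on either side of each limit were at unequal distances from it. On 3L the last region inside (25052718 to 25056102), 47.3 kb from the limit, had a total of 35297 and a maximum of 42, and the first outside, 0.898 kb beyond the limit, had 24460 and 21. On 2R the first region inside (3001984 to 3004528) had a total of 21210 and a maximum of 24, and the last outside, 144 kb away from the limit, had 24119 and 14. On 3R total and maximum were 28765 and 41 inside against 19946 and 14 outside, 11.3 kb beyond the limit. On 2L they were 18489 and 23 inside against 25222 and 21 outside, 535 kb beyond it. The maximum was higher on the inner side in each of these pairs, by the most on 3R and the least on 2L. Total signal was lower on the inner side on 2L and 2R and higher on 3L and 3R. Pairs of single regions at unequal distances give no trend across the limits.

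Along the arms the regions were sparse, at 3.54 per Mb. The spacing that the number of peaks alone would give was not computed. Gaps and distances are thus a description and are not read as a trait of the regions. The median gap between neighbours was 217 kb, and 12 of 339 gaps were under 10 kb. The nearest peak of any of the other 4 libraries was a median of 63.4 kb away (quartiles 24.8 and 133 kb), and 45 regions (13.1%) had such a peak within 10 kb. By library the median distance was 69.0 kb to 0-2 h control replicate 2, 121 kb to 0-2 h control replicate 1, 164 kb to clampRNAi and 254 kb to 2-4 h control replicate 1. That order follows the number of peaks in the lists. The closest case was a region in atos (2R, 11633298 to 11637142), 114 bp from a peak of another library. The farthest, named after the values were seen, covered part of scrib, a cell polarity gene (3R, 26558403 to 26565516), and lay 751602 bp away.

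**Figure D3:**
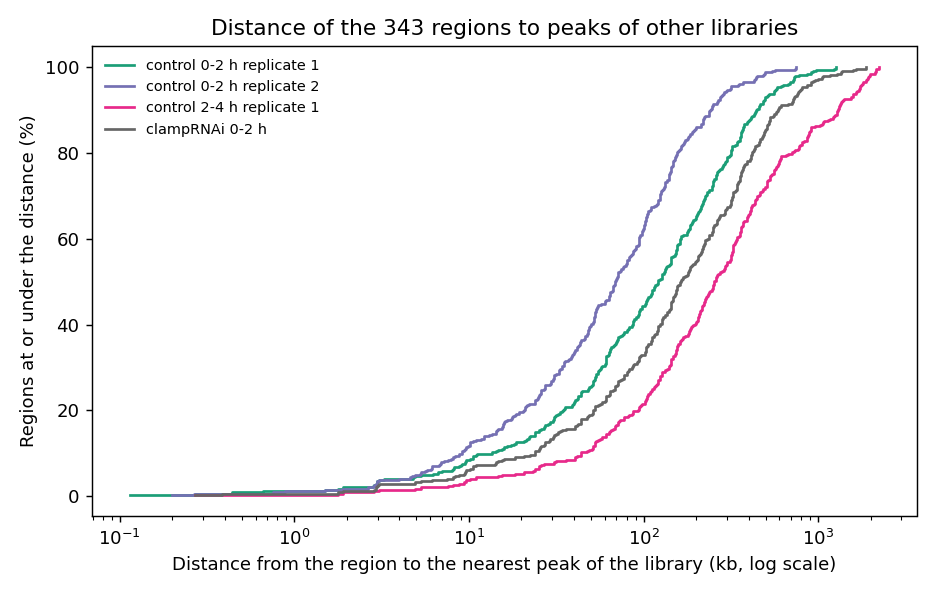
Percent of the 343 regions (y) at or under a given distance in kb (x, log scale) from the nearest peak of each of the other 4 libraries. Median distances ranged from 69.0 kb for 0-2 h control replicate 2 to 254 kb for 2-4 h control replicate 1, and few regions had a neighbour within 10 kb.

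Relative to genes, the regions lay outside genes in a somewhat larger share than the bases of the arms do. For the share inside genes the interval reached up to about the share of bases. The higher density of regions near the limits was not taken into account. The midpoint of the maximum lay inside an annotated gene in 224 regions, 65.3% (Clopper-Pearson 95% interval 60.0% to 70.3%), while 70.3% of the bases of the arm spans are inside genes. It lay within 500 bp of either end of a gene in 62 regions, 18.1% (14.1% to 22.6%), where such windows hold 20.0% of bases. Outside genes and farther than 500 bp from any gene end lay 104 regions, 30.3% (25.5% to 35.5%), against 24.1% of bases. For the 219 shared regions the inside and intergenic shares were 72.1% (65.7% to 77.97%) and 20.1% (15.0% to 26.0%). The gene table carries no strand, so starts and ends of genes were not separated.

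Of the 12 regions of highest total signal, 5 overlapped a gene and 7 overlapped none, and 7 lay within 3 Mb of the centromere-side limit. Of all 343 regions, 252 (73.5%) overlapped a gene and 71 lay within 3 Mb of that limit. The strongest lay on 2R (5049213 to 5057433), 7804 bp from TpnC41C, a troponin C gene, with a total of 173873, a maximum of 44 and a percentile of 89.9 in the list. Another on 2R (3759692 to 3767451) had a total of 89792 and lay 111927 bp from RYa, which encodes RYamide neuropeptides. A further region, 134043 bp from RYa (2R, 3507365 to 3513303), had 54940. The region on 2R at 3883735 to 3890390 had 57820 and lay 9895 bp from uex. On 3L a region 83328 bp from scro, a homeobox gene (24634433 to 24640834), had 60344. On 2L a region 4960 bp from CG43438 (11541804 to 11547974) had 64349 and a peak of another library 199 bp away, and on 3R one 250 bp from Osi1 (6175221 to 6182561) had 52597.

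The other leading regions overlapped genes. These were isoQC, a glutaminyl cyclase gene (3L, 20476416 to 20483300), with a total of 84543 and a maximum of 40, and Sox100B, an HMG-box transcription factor gene (3R, 31074274 to 31081913), with 76335 and 24. Pzl, which encodes a Piezo-like protein (3R, 3051149 to 3057132), had 68034 and 44, and CG14636 (3R, 4205730 to 4211644) had 50522 and 21. Prosap, the fly Shank scaffold gene of synapses, held the widest region of all (2R, 14097133 to 14109585), at 12453 bp with a total of 61668 and a maximum of 12. Next in width came 9174 bp over LpR2, a lipophorin receptor gene (3R, 25725669 to 25734842), and 8967 bp over RYa-R, the RYamide receptor gene (3R, 27007571 to 27016537). Both had a maximum of 10. A region of 7702 bp over lncRNA:CR43635 (3R, 5045250 to 5052951) had a maximum of 14.

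The highest maxima stood in other regions than the highest totals. The region over Dbx, a homeobox gene, and tRNA:Cys-GCA-2-1 (3L, 1924851 to 1926810) had a maximum of 130 and a total of 19095. The region over CG33158 and aos, which encodes an inhibitor of the EGF receptor (3L, 16472677 to 16475062), had 92 and 18293. The one in Lar, a receptor tyrosine phosphatase gene of axon guidance (2L, 19626202 to 19627680), which also overlapped CG46244, had 72 and 18720. In inaD, a scaffold gene of phototransduction (2R, 22857728 to 22861182), the values were 68 and 22108, and in CG40470 (3L, 23848785 to 23849939), the narrowest region at 1155 bp, they were 52 and 20820. These 5 were the regions with a maximum over 50. Next, tied at a maximum of 46, were the region over the heat shock gene Hsp68 and the cohesin gene SMC1 (3R, 24056265 to 24059127), with a total of 25000, and the region over BomBc3, a gene of the Bomanin immune peptides (3R, 22088198 to 22089847), with 18320.

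In all 252 regions (73.5%) overlapped some gene, and 241 (70.3%) overlapped a protein-coding gene. A single protein-coding gene was overlapped by 172 regions, 2 by 53, 3 by 13 and 4 by 3. The last 3 regions lay over compact groups of housekeeping and other genes. They were EloB, Srp14, CG34008 and CG16953 (3R, 20579560 to 20582488), then hebe, CG1663, Lsm11 and Marc (2R, 9836621 to 9839810), and eEF1alpha2, Tbca, CG1896 and awd (3R, 31742905 to 31745912). EloB encodes elongin B, Srp14 a subunit of the signal recognition particle, Lsm11 a protein of the U7 snRNP and awd a nucleoside diphosphate kinase. Their total signals were 24827, 24371 and 20810.

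The regions overlapped 384 of 14418 genes of these arm spans, a background of 2.66%, and 320 of 11343 protein-coding genes (2.82%). Long genes were overlapped more often: 113 of 783 genes of at least 20 kb (14.4%) and 271 of 13635 shorter ones (1.99%). The median length was 8218 bp for overlapped protein-coding genes and 2096 bp for all. Of the 384 genes, 35 (9.11%) also held a peak of another library elsewhere in their extent, while 2.62% of all genes held such a peak. Among genes of at least 20 kb these shares were 28.3% (32 of 113) and 25.9% (203 of 783).

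Gene lists are read against those shares, and no list was tested. Of 37 early zygotic and segmentation genes, 2 were overlapped (5.41%). They were pnr, a GATA factor gene of the dorsal ectoderm (region 3R, 16028422 to 16032701, total 27076, maximum 20), and Doc1, a T-box gene of dorsal tissues (3L, 9044123 to 9046772, total 20746, maximum 18). Of 9 Hox and related genes, Ubx alone was overlapped, inside its 77.8 kb extent (3R, 16681585 to 16683848, total 18855, maximum 18). Of 17 genes linked to the maternal-to-zygotic transition, 3 were overlapped: pum, a translational repressor gene (20594 total, 171 kb long), Stat92E, the JAK-STAT transcription factor gene (18954), and osk, the germ plasm organiser (18541). Both pum and Stat92E also held a peak of another library, and in the whole list 5 of 17 did (29.4%).

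Genes of axon guidance and adhesion were overlapped in 8 of 39 (20.5%), and the median length in the list was 41929 bp. Of those 8 genes, 3 also held a peak of another library, and in the whole list 14 of 39 did (35.9%). The first of the 8 in order of total signal were Ten-m, a teneurin gene (27819), ed, an immunoglobulin adhesion gene (26025), and robo2, a Slit receptor gene (21311). Their maxima were 19, 23 and 23. Among all genes of at least 20 kb the share was 14.4%. Per Mb of gene length this list held 4.35 overlaps, against 5.26 over all genes of the spans. That measure was far higher in lists of short genes, at 1009 per Mb for snRNA genes (median length 160 bp). The median over all genes was 1670.5 bp, so the 5.26 is no background for lists of longer genes. Splicing and RNA-binding factor genes were overlapped in 5 of 31 (16.1%), with 4.43 overlaps per Mb, led by Rbfox1 (24588), heph (23866) and bru3 (19866). Of those 5 genes, 4 also held a peak of another library, and in the whole list 8 of 31 did (25.8%). Those 4 genes are long, from 113 kb (Rbfox1) to 281 kb (bru3). Of 32 ion channel genes, 2 were overlapped, the calcium channel subunit gene Ca-beta (35633) and the potassium channel gene KCNQ (21066). None of 25 dpr and DIP genes, which encode interacting cell-surface proteins, was overlapped, and 4 of 25 (16%) held a peak of another library. Their median length was 32270 bp.

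Other lists held few overlaps. Of 33 signalling genes there were 2, Pvr, a PDGF and VEGF receptor gene (23313), and aos. Single genes were brm, the SWI/SNF ATPase gene, of 24 Polycomb and trithorax genes (21164), Hsp68 of 20 heat shock genes and sls, a titin-like muscle gene, of 28 muscle and cytoskeleton genes (26652). Of 131 detoxification genes 2 were overlapped, Ugt317A1 and Ugt301D1 (23651 and 18651). Of 203 chemoreceptor and odorant-binding genes there were 5 (2.46%), led by Obp84a (32777), Gr63a (23293) and Ir54a (20666). None of the 4 dosage compensation genes matched on these spans, 21 cell cycle genes, 74 ribosomal protein genes, 122 cuticle and chorion genes and 193 microRNA genes was overlapped.

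Some genes of small structural RNAs were overlapped several to a region, others singly. Of 100 5S rRNA genes and pseudogenes, 12 were overlapped, all by 1 region of 4415 bp in the tandem array on 2R (19742282 to 19746696), with a total of 23263 and a maximum of 14. It covered 5SrRNA:CR33417, 5SrRNA:CR33415 and 5SrRNA:CR33414 among others. A different 14 of the 100 held a peak of another library, and the nearest such peak to the region was 6635 bp away. Calls on 5S rRNA genes were thus not confined to this library. Reads from such repeated copies cannot be assigned to a single copy, and how the authors treated them is not given in the sources used here. Of 29 snRNA genes 5 were overlapped, by 4 regions. The U2 genes snRNA:U2:34ABa and snRNA:U2:34ABb shared a region (2L, 13212088 to 13216237, total 27152, maximum 17), and snRNA:U11 lay in the region that also overlapped Gr63a (3L, 3892393 to 3895104). All 4 overlapped snoRNA genes lay inside the splicing factor gene Hrb98DE, in 1 region (3R, 28599330 to 28602270, total 19075). Among 269 tRNA genes 2 were overlapped, tRNA:iMet-CAT-2-1 (19138) and tRNA:Cys-GCA-2-1. The serine protease genes Jon99Cii and Jon99Ci also shared 1 region (18210), of 26 such genes.

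**Figure D4:**
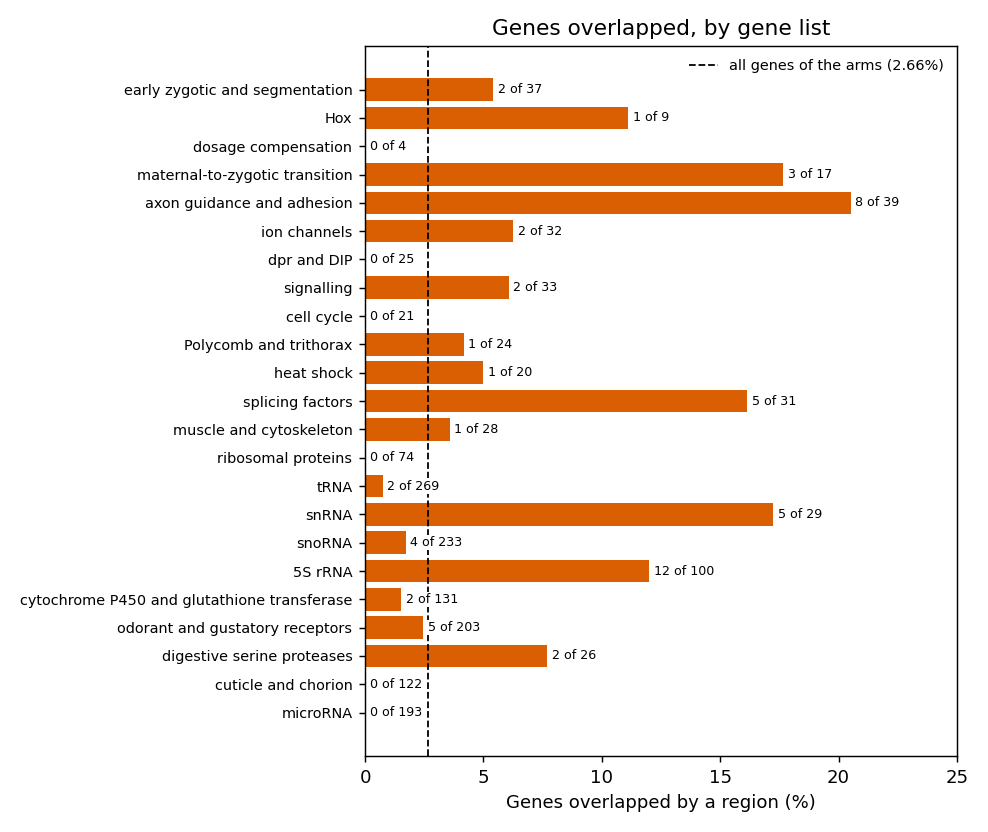
Percent of genes of each list overlapped by at least 1 of the 343 regions (x), with the number of genes beside each bar and a dashed line at the 2.66% of all genes on the arm spans. The axon guidance list (8 of 39) lies above the line, and 5S rRNA genes (12 of 100) do so through a single region. None of 25 dpr and DIP genes was overlapped. The line is no background for the axon guidance or the dpr and DIP genes, which are long (medians of 41929 and 32270 bp). Of all genes of at least 20 kb, 14.4% were overlapped.

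Genes with more than 1 region numbered 8, and they are named here after their values were seen. Pzl, the longest at 709 kb, held 3 (totals of 28765, 68034 and 19104). Ca-beta, CadN (a cadherin gene of neurons), CG42747, bru3, CG40470, Snap25 (a synaptic SNARE gene) and eEF1alpha2 held 2 each. In CadN they had totals of 20999 and 18361, in Ca-beta 19896 and 35633, and in Snap25 19812 and 20212. The 4.84 kb eEF1alpha2 gene was touched at either end by regions that extended over its neighbours, with maxima of 17 and 12.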

How the data were processed

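Peaks from CUT&RUN with a rat anti-MLE antibody were analysed for 5 libraries of female embryos, grouped by sample title. Per the submitters' processing notes, bcl2fastq 2.17, Trimmomatic 0.40, Bowtie2 2.4.4, SEACR 1.3, deepTools and dm6 were used, without roles. Each deposited list gives the authors' total and maximum signal (summed and highest coverage) per peak, in SEACR's layout, with 1 list per library. Not given in the sources used here were the control track, the threshold and any spike-in scaling, and depth is unknown.

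Peaks were merged and regions selected with Python 3.11.15, pandas 2.3.3 and scipy 1.17.1. The selection was also run on simulated lists. Their peaks either overlapped by construction or lay far apart inside the arm limits, so near misses and the limits were not exercised. Percentiles rank total signal within a list. Genes were extents in a RefSeq table without strand, exons or sequence, built on Release 6 plus ISO1 MT, which dm6 also names. The end of 2R and of 3R was the largest coordinate seen. Coordinates are 1-based. The planned description of G+C content and GA repeats was not run, since no genome sequence was used here. The 23 gene lists and the regions were chosen with earlier results of these data known. Named were the 12 regions of highest total signal, the 6 widest, the 6 of highest maximum, the 3 over most protein-coding genes, those beside each arm limit and up to 3 genes per list. List symbols h, nos, Dl, wee, calypso, Hsp67Bb, Hsromega, hrp36 and unc-89 were not matched. Alternatives changed merging, width, threshold, arm limits, libraries and gene windows.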

Additional observations from a re-analysis of the deposited data

How the results depend on the processing

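No paired analysis was possible because the results come from no test and every region comes from a single library. Without 2-4 h control replicate 2 no region met the rule. Leaving out each other library in turn gave 343 to 432 regions, median widths of 3041 to 3318 bp, median maxima of 18 to 19, 65.3% to 65.5% inside a gene, 18.02% to 19.7% within 500 bp of a gene end and 384 to 446 genes. The highest counts came without 0-2 h control replicate 2, which added 89 regions. The threshold mattered most. The upper 50% of each list gave 41 regions, a median width of 5939 bp, a median maximum of 20, 51.2% inside a gene, 4.88% near a gene end and 26 genes. Lists kept to 370 peaks gave 5 regions, 7640 bp, a maximum of 40, 40% inside a gene and 3 genes. Peaks of at least 200 bp gave a median width of 2888 bp and a median maximum of 20. Whole arms gave 3567.5 bp, 59.2% inside a gene and 14.1% near a gene end. Counting any overlap gave 73.5% for the share inside a gene, and windows of 250 and 1000 bp gave 10.5% and 27.7% near a gene end. Beyond their construction, which kept fewer peaks or changed the window, the cause was not tested. Of 66 alternative values, 45 stayed within 1.5 times the count reported or within the 95% interval, including merging across 500 bp and requiring an overlap of 50%. Leaving out 2-4 h control replicate 1 or clampRNAi, or requiring the overlap of 50%, returned the identical 343 regions. Those values thus could not move. Counts of 447 (peaks of at least 200 bp) and 476 (whole arms) also passed, so the tally is a loose measure. All regions rest on a list whose depth is unknown, and 289 of 343 stood within 1.5 times its lowest total signal.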
